A study of Macaca fascicularis with 8 samples.

Results

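The genes that write, keep and remove DNA methylation were followed in embryonic stem cells (ESCs) of the cynomolgus monkey, Macaca fascicularis, grown in 2 ways. The set held 9 genes of 33121 in the deposited table. These were the methyltransferase genes DNMT3A, DNMT3B and DNMT1, the cofactor gene DNMT3L, the maintenance gene UHRF1, the oxidase genes TET1, TET2 and TET3, and the glycosylase gene TDG. A member was the row that carried its symbol or, where no row did, the row whose best protein match named its protein with at least 85% identity. All 9 members had a row, and DNMT1 and TET2 matched more than 1 row, of which the row with the highest mean was used.

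The study set 4 libraries of polyadenylated RNA from dome-shaped ESCs against 4 from primed ESCs. Dome-shaped ESCs had been kept in the medium that the labels call NHSMV. It is a serum-free medium on a knockout DMEM base with AlbuMAX I, N2 supplement, glutamine, nonessential amino acids and β-mercaptoethanol. Added to it were insulin, LIF (leukaemia inhibitory factor), bFGF, TGF-β1, vitamin C at 50 µg/ml, the MEK inhibitor PD0325901 at 1 µM, the GSK3 inhibitor CHIR99021 at 3 µM, the JNK inhibitor SP600125 and the p38 inhibitors SB203580 and SB202190. Primed ESCs grew as flat colonies in the medium called CESM, a mix of the commercial PSGro medium and conventional monkey ESC medium; whether it held vitamin C is not stated. Dome-shaped cells are labelled as strong, and primed cells as weak, in passage as single cells. Medium, colony shape and group coincide, so their parts in any difference cannot be told apart. Nothing in the labels says that libraries of a group came from separate cultures, so p-values measure only the spread between these libraries.

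DNA methylation is the addition of a methyl group to cytosine, mostly where a guanine follows. DNMT3A and DNMT3B set new methyl groups, with DNMT3L as a catalytically inactive cofactor, and UHRF1 brings DNMT1 to newly copied DNA so that the mark is kept through division. The TET enzymes oxidise methylcytosine, TDG cuts out the more oxidised forms, and base excision repair puts cytosine back. TET enzymes need iron, 2-oxoglutarate and oxygen, and vitamin C is known to raise their activity in cultured cells. Activity, protein and methylation itself were not measured here.

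The libraries implied 14402888 to 17678381 reads in dome-shaped and 16358752 to 18078808 reads in primed cells. The labelled cell type was checked on ESC markers. SOX2 had 219 to 322 RPKM (reads scaled by gene length and library depth) in dome-shaped and 172 to 273 RPKM in primed libraries, and LIN28A had 733 to 954 RPKM against 964 to 1183 RPKM, while POU5F1 was paired with no row. Of 15 ESC markers tested, limma called 7 lower and 0 higher in dome-shaped cells; TDGF1, a Nodal co-receptor gene, had 108 ± 112.5 RPKM in dome-shaped and 396 ± 86.5 RPKM in primed cells (SD, n = 4 each). Dome-shaped replicate 4 stood apart from its group. Across the 15597 genes tested, its log2 values correlated at 0.949 to 0.962 with those of the primed libraries, where those of the other dome-shaped libraries correlated at 0.923 to 0.942; genes are not independent replicates. Results for DNMT3B, UHRF1, TET3 and several counts are therefore also given without it. Replicate 4 was singled out for its likeness to the primed libraries, so leaving it out tends to widen differences between the groups. Over all genes, 995 called higher and 1242 called lower became 1289 and 1441. Values without replicate 4 are thus no separate support.

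Both genes for active de novo methyltransferases were called lower in dome-shaped cells, and no member was called higher. DNMT3B and DNMT3A fell to 0.528 and 0.683 of their mean levels in primed cells. Maintenance genes, TET genes and TDG did not pass the test. Of 8 members tested with limma, 0 were called higher and 2 lower (Benjamini-Hochberg adjusted p under 0.05 over 15597 genes); at an unadjusted p under 0.05, 0 were higher and 3 lower. Over all genes tested, 6.38% were called higher, 7.96% lower and 14.3% in either direction. These shares are for the adjusted p. No share over all genes was taken for the unadjusted counts given here and below, so those counts cannot be set against it. The members' median log2 fold change was -0.10, beside 0.03 over all genes. Leaving out 1 library left 2 members lower without dome-shaped replicate 4 or primed replicate 1. It left 1 without dome-shaped replicate 1, dome-shaped replicate 3 or primed replicate 4, and 0 without dome-shaped replicate 2, primed replicate 2 or primed replicate 3. In these bulk libraries, fewer cells that express a gene and less RNA per cell cannot be told apart.

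**Figure D1:**
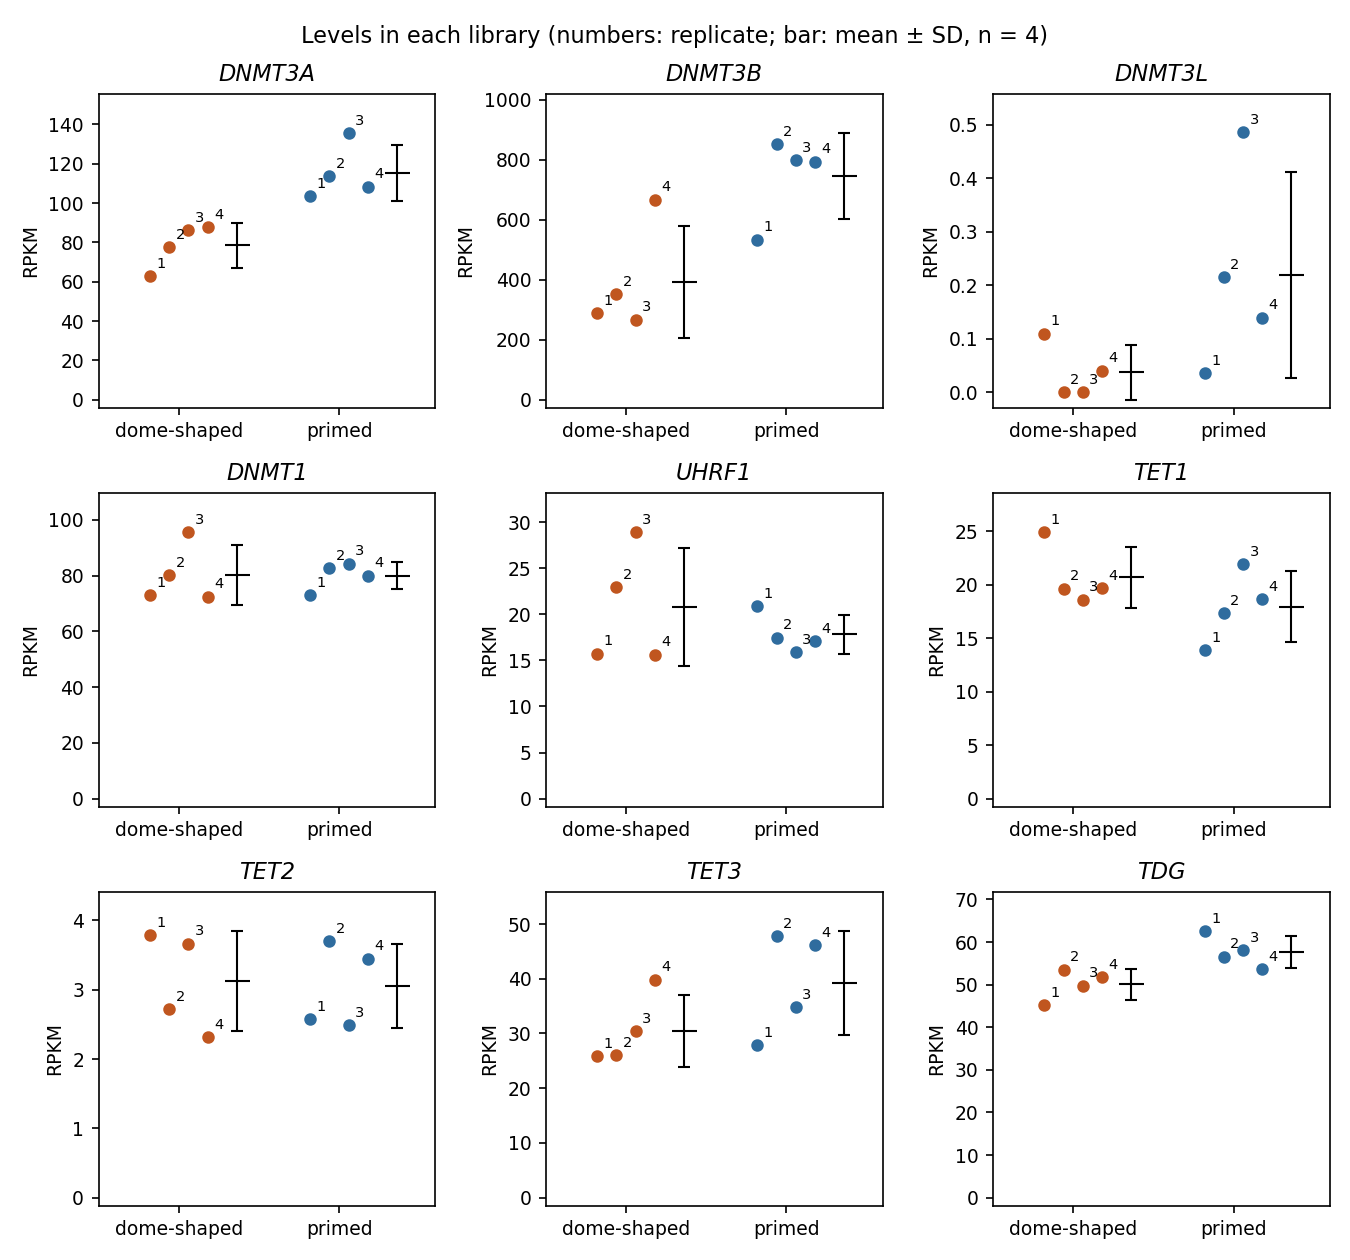
RPKM of the 9 members in each library, dome-shaped on the left and primed on the right of each panel, with replicate numbers beside the points and the mean ± SD of 4 libraries as a bar. DNMT3A lies lower in every dome-shaped library, whereas dome-shaped replicate 4 has 667 RPKM of DNMT3B, above the 533 RPKM of primed replicate 1.

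The order of levels by the mean over all 8 libraries was DNMT3B at 568 RPKM, DNMT3A at 96.9, DNMT1 at 80.1, TDG at 53.9, TET3 at 34.8, UHRF1 and TET1 both at 19.3, TET2 at 3.09 and DNMT3L at 0.128 RPKM. RPKM is scaled by gene length, so these levels can be set beside each other. DNMT3B was higher than 99.0% of the genes tested, with 157 genes above it. DNMT3A was below DNMT1 in 3 of 4 dome-shaped libraries and above it in 4 of 4 primed libraries. UHRF1 and TET1 overlapped in both groups. TDG was above TET3 and TET3 above TET1 in each of the 8 libraries.

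DNMT3A, the de novo methyltransferase also used in differentiated tissues, had 62.8, 77.7, 86.2 and 87.8 RPKM in dome-shaped replicates 1 to 4, against 104, 113, 135 and 108 RPKM in primed replicates 1 to 4. Every dome-shaped library lay below every primed library. The means were 78.6 ± 11.4 RPKM in dome-shaped and 115 ± 14.0 RPKM in primed cells (SD, n = 4 each). On the log2(RPKM + 1) scale the change was -0.55 (SE 0.12, 95% interval -0.83 to -0.27, limma adjusted p = 0.0202). The exact two-sided permutation test over the 70 relabellings of the libraries gave p = 0.0286, the smallest that 4 against 4 allows; it was run for each of the 9 members and is not adjusted. The limma call was lost without dome-shaped replicate 2 (adjusted p = 0.0558), primed replicate 2 (0.0552) or primed replicate 3 (0.05, at the threshold), and the fold change without any 1 library stayed between -0.61 and -0.45. About 4344 to 10538 reads per library lay behind these values.

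DNMT3B, the de novo methyltransferase typical of the early embryo and of pluripotent cells, had 288, 351, 266 and 667 RPKM in dome-shaped replicates 1 to 4, against 533, 852, 797 and 793 RPKM in primed replicates 1 to 4. Dome-shaped replicates 1 to 3 lay below all primed libraries, and dome-shaped replicate 4 lay within the primed range, so the groups overlapped. It averaged 393 ± 186 RPKM in dome-shaped and 744 ± 143 RPKM in primed cells (SD, n = 4 each). The log2 fold change was -0.998 (SE 0.28, 95% interval -1.62 to -0.38, limma adjusted p = 0.0419; exact permutation p = 0.0571, two-sided). Without dome-shaped replicate 4 the other 3 dome-shaped libraries averaged 302 ± 44.3 RPKM and the log2 fold change was -1.29 (SE 0.17, limma adjusted p = 0.0027). That library was singled out for its likeness to the primed group, so the larger change is no separate support. The call was lost without any of dome-shaped replicates 1, 2 and 3 or primed replicates 2, 3 and 4 (limma adjusted p 0.0918 to 0.106).

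Taken per library, the summed level of DNMT3A and DNMT3B was 351, 429, 352 and 755 RPKM in dome-shaped and 636, 966, 932 and 902 RPKM in primed cells. DNMT3B made up 82.0 ± 5.24% of that sum in dome-shaped and 86.4 ± 2.15% in primed cells (SD, n = 4 each). The difference of -4.39 percentage points did not exceed the spread (exact permutation p = 0.2, two-sided; 0.2 when adjusted over the 3 relative levels tested). Relative to DNMT1, which sets the scale of maintenance, DNMT3B stood at 2.79 to 9.20 times its level in dome-shaped and at 7.30 to 10.3 times in primed libraries. The highest of these dome-shaped ratios belonged to replicate 4.

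DNMT3L, the cofactor that in mouse guides de novo methylation in germ cells, was near 0 in both groups. It had 0.109, 0, 0 and 0.0406 RPKM in dome-shaped and 0.0354, 0.215, 0.486 and 0.140 RPKM in primed replicates 1 to 4. These values came to 3, 0, 0 and 1 reads in dome-shaped and 1, 6, 15 and 4 reads in primed libraries. A count of 3 reads would have read 0.0972 to 0.122 RPKM at these depths, which covers counting error only. The gene did not pass the filter of 1 RPKM in at least 4 libraries, and the exact permutation test gave p = 0.0857 (two-sided). In sum these were 4 reads in dome-shaped and 26 reads in primed libraries, 15 of the latter from primed replicate 3. The permutation test, which measures the spread between libraries, detected no difference in DNMT3L.

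**Figure D2:**
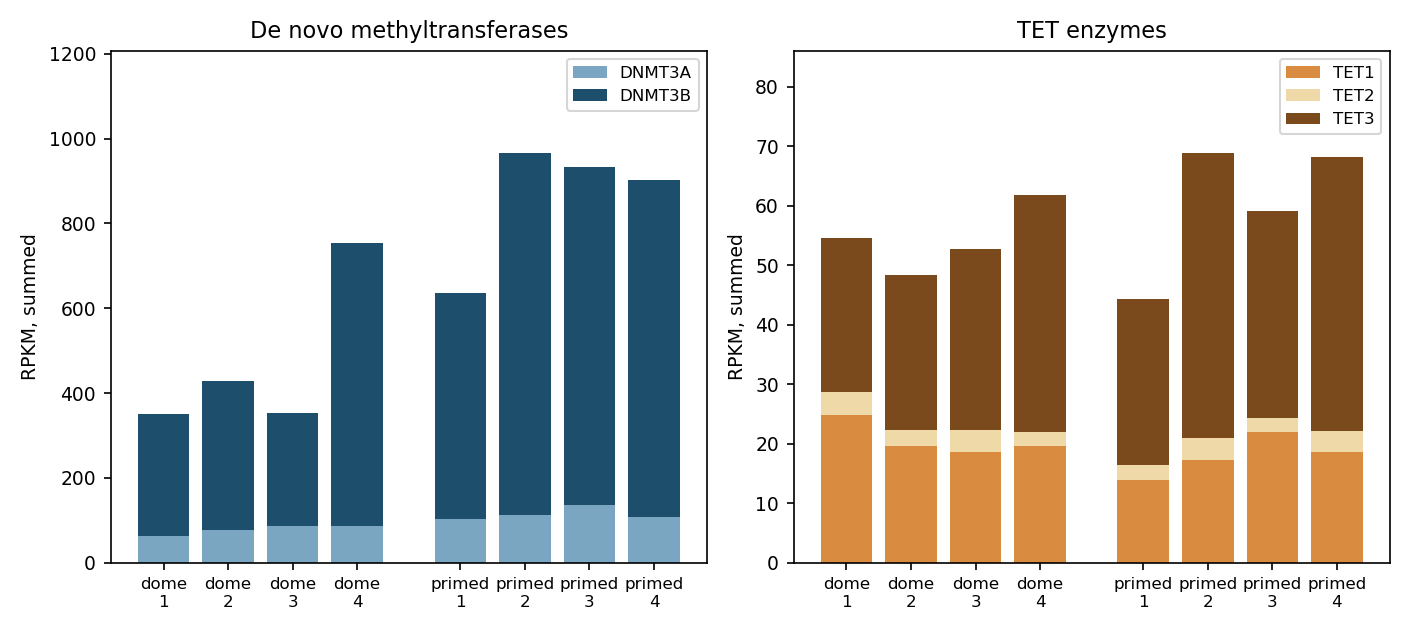
Summed RPKM of DNMT3A and DNMT3B (left) and of TET1, TET2 and TET3 (right), 1 bar per library, dome-shaped replicates 1 to 4 left of primed replicates 1 to 4. The DNMT3 sum of dome-shaped replicate 4, 755 RPKM, exceeds that of primed replicate 1, 636 RPKM, while the TET sums of the groups overlap.

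Neither maintenance gene was called. DNMT1, which copies the methylation of the parent strand, had 73.0, 80.2, 95.5 and 72.5 RPKM in dome-shaped and 73.0, 82.7, 84.3 and 79.9 RPKM in primed replicates 1 to 4. The groups lay on top of each other, at 80.3 ± 10.7 RPKM in dome-shaped and 80.0 ± 4.98 RPKM in primed cells (SD, n = 4 each). The log2 fold change had a 95% interval of -0.22 to 0.22 (limma adjusted p = 0.991). Of the 3 rows that matched DNMT1, the row used covered residues 216 to 1613 of the 1632 of its match, and the other rows were short pieces of 448 and 775 bases.

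UHRF1, which reads half-methylated DNA after replication, had 15.7, 22.97, 28.9 and 15.6 RPKM in dome-shaped and 20.9, 17.5, 15.9 and 17.1 RPKM in primed replicates 1 to 4. Dome-shaped replicates 2 and 3 were above every primed library and replicates 1 and 4 below every one. The log2 fold change was 0.17 (SE 0.19, 95% interval -0.26 to 0.61, limma adjusted p = 0.575). Without dome-shaped replicate 4 it was 0.29 (SE 0.19, limma adjusted p = 0.327). The log2 ratio of DNMT1 to UHRF1 was 1.99 ± 0.261 in dome-shaped and 2.17 ± 0.256 in primed cells (SD, n = 4 each; exact permutation p = 0.171, two-sided, 0.2 adjusted over the 3 relative levels). Its relative UHRF2 had 51.3 ± 2.19 RPKM in dome-shaped and 47.4 ± 5.27 RPKM in primed cells, and was not called (limma adjusted p = 0.4).

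None of the TET genes was called, and at an unadjusted p under 0.05 the count was also 0. TET3 and TET1 held most of the family's RNA. TET1, the TET gene best known from ESCs, had 24.9, 19.6, 18.6 and 19.7 RPKM in dome-shaped and 13.9, 17.3, 21.9 and 18.6 RPKM in primed replicates 1 to 4. Replicate 1 was the highest of the dome-shaped libraries and primed replicate 1 the lowest of all, while the rest overlapped. The log2 fold change was 0.21 (SE 0.15, 95% interval -0.12 to 0.53, limma adjusted p = 0.369).

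TET3, the oxidase known from the egg and zygote in mouse, had 25.8, 25.98, 30.4 and 39.8 RPKM in dome-shaped and 27.9, 47.8, 34.8 and 46.1 RPKM in primed replicates 1 to 4. The groups overlapped, since primed replicate 1 lay below dome-shaped replicates 3 and 4. The log2 fold change was -0.34 (SE 0.19, 95% interval -0.78 to 0.10, limma adjusted p = 0.261). Without dome-shaped replicate 4 it was -0.47 (SE 0.18, limma adjusted p = 0.115). With limma's weights per library it was -0.59 (adjusted p = 0.0159), the 1 alternative under which TET3 was called. The row used matched residues 768 to 1714 of 1714, so it reports the C-terminal part of the gene, where the oxidase domain of TET proteins lies.

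TET2, the oxidase best known from blood cells, was low at 3.79, 2.72, 3.66 and 2.31 RPKM in dome-shaped and 2.58, 3.70, 2.49 and 3.45 RPKM in primed replicates 1 to 4. Levels spread alike in both groups, and the log2 fold change was 0.02 (SE 0.18, 95% interval -0.39 to 0.43, limma adjusted p = 0.952). Only 131 to 255 reads per library lay behind it. The table splits TET2 into a row that matched residues 1 to 1134 of 1898 and a row that matched residues 1321 to 2003 of 2003. The second row had 2.20 to 3.125 RPKM in dome-shaped and 2.02 to 2.71 RPKM in primed libraries.

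In the TET sum, which was 54.3 ± 5.62 RPKM in dome-shaped and 60.15 ± 11.4 RPKM in primed cells, TET1 held 45.6, 40.6, 35.3 and 31.8% in dome-shaped and 31.3, 25.2, 37.0 and 27.3% in primed replicates 1 to 4. The shares overlapped, with primed replicate 3 above dome-shaped replicates 3 and 4. TET1's mean share was 38.3 ± 6.07% in dome-shaped and 30.2 ± 5.20% in primed cells (SD, n = 4 each). The difference of 8.16 percentage points did not pass (exact permutation p = 0.114, two-sided; 0.2 adjusted over the 3 relative levels). TET3 held 55.8 ± 7.15% in dome-shaped and 64.7 ± 4.81% in primed cells.

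TDG, the glycosylase that removes the oxidised bases made by TET enzymes, had 45.2, 53.5, 49.8 and 51.7 RPKM in dome-shaped and 62.5, 56.6, 58.1 and 53.6 RPKM in primed replicates 1 to 4. The groups did not overlap, with dome-shaped replicate 2 just below primed replicate 4. The log2 fold change was -0.20 (SE 0.08, 95% interval -0.38 to -0.02), and it was not called (limma adjusted p = 0.12; exact permutation p = 0.0286, two-sided, the smallest the design allows). DNMT3A and TDG were thus the 2 of 8 tested members whose groups did not overlap, both lower; over all genes tested the groups did not overlap for 22.2%, and for 10.7% in the lower direction.

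**Figure D3:**
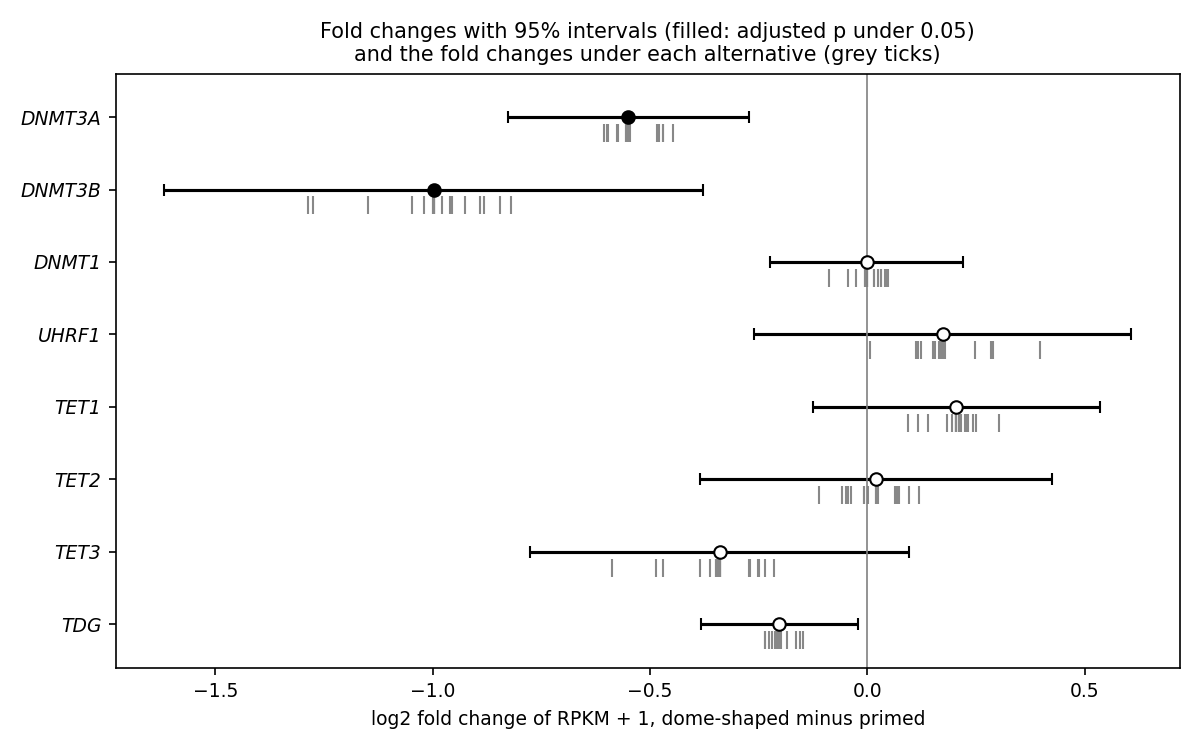
log2 fold change of RPKM + 1, dome-shaped minus primed, with its 95% interval for the 8 members tested (filled where the limma adjusted p was under 0.05), and below each the fold changes under the alternatives as grey ticks. The intervals of DNMT3A, DNMT3B and TDG lie below 0, that of TDG without a call, and the remaining 5 span 0.

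The sample titles carry a number after CES, and the labels do not say what it marks. Dome-shaped replicates 1 and 2 and primed replicate 1 carry number 1. Dome-shaped replicate 3 and primed replicate 2 carry number 2. Dome-shaped replicate 4 and primed replicates 3 and 4 carry number 3. The titles of dome-shaped replicate 4 and primed replicate 4 differ only in their last letter. Whether libraries of 1 number share a source is not stated. Within numbers 1, 2 and 3 the differences in log2(RPKM + 1) of DNMT3A were -0.56, -0.39 and -0.46, so the dome-shaped libraries were lower at each. For DNMT3B they were -0.74, -1.68 and -0.25, lower at each number but unequal in size. TDG differed by -0.34, -0.18 and -0.11. TET1 differed by 0.64, 0.10 and -0.04, UHRF1 by -0.13, 0.69 and -0.07, and TET3 by -0.10, -0.64 and -0.01. Each value rests on 1 or 2 libraries a side, so none was tested.

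**Figure D4:**
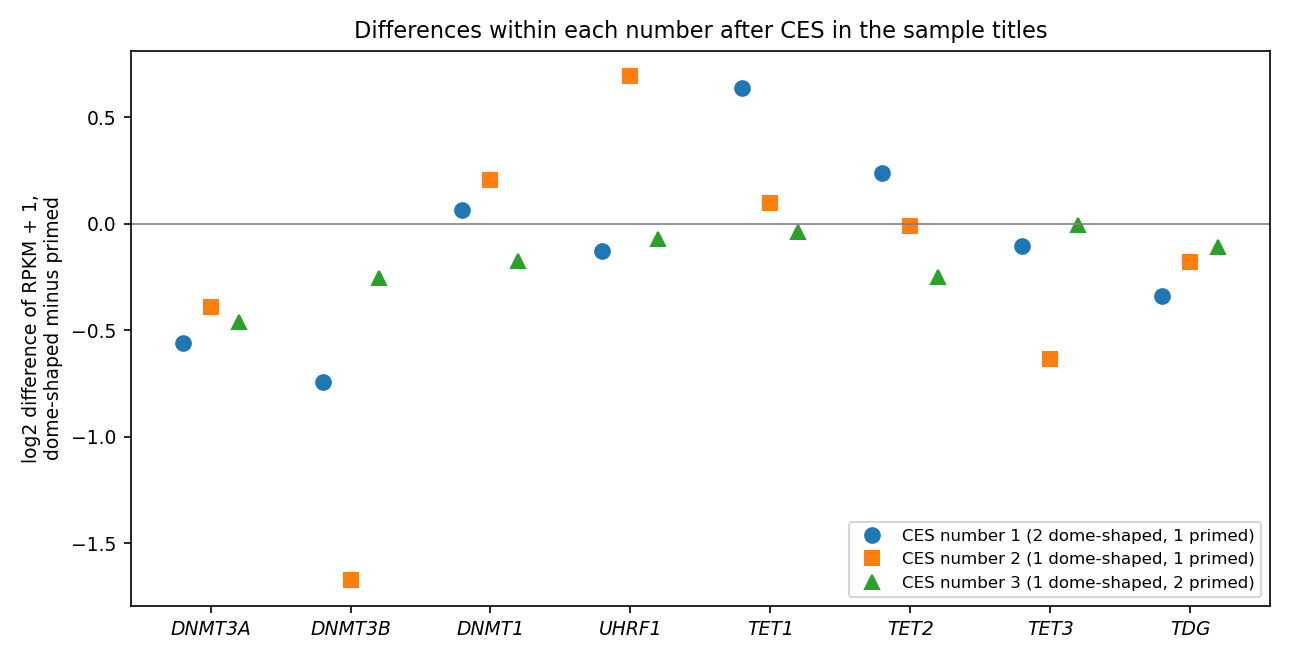
Differences in log2(RPKM + 1), dome-shaped minus primed, within each number after CES for the 8 members tested; each symbol stands for 1 or 2 libraries a side. DNMT3A, DNMT3B and TDG are below 0 at all 3 numbers, and DNMT3B ranges from -1.68 to -0.25.

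The genes whose log2 values followed the called members most closely over the 8 libraries were looked up among 6274 genes with a symbol and a mean of at least 5 RPKM. For DNMT3A these were VMA22 (Pearson r 0.987), DPYSL4 (0.984) and KAT6B (0.983), a histone acetyltransferase gene. For DNMT3B they were EGR1 (0.987), TCF7L1 (0.986) and DBC1 (0.984). EGR1, an immediate early gene switched on by the MEK and ERK pathway, had 0.0799, 2.12, 1.16 and 140 RPKM in dome-shaped and 27.1, 333, 169 and 199 RPKM in primed replicates 1 to 4. Dome-shaped replicate 4 was thus within the primed range of EGR1 as it was of DNMT3B. EGR1 was not called (log2 fold change -4.56, SE 1.41, limma adjusted p = 0.0599). TCF7L1, a repressor in the WNT pathway, had 62.5 ± 18.5 RPKM in dome-shaped and 102 ± 14.1 RPKM in primed cells (SD, n = 4 each; limma adjusted p = 0.0323). These correlations share the 8 libraries and the group difference and are descriptions.

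Partners of the methyltransferases moved in both directions. Of 31 tested genes on that list, 4 were higher and 3 lower, with a median log2 fold change of -0.05. The called share was 22.6%, beside 14.3% over all genes. Without 1 library 3 to 6 were higher and 0 to 3 lower. The lower count was 1 without dome-shaped replicate 1, dome-shaped replicate 2 or primed replicate 1, and 0 without dome-shaped replicate 3 or primed replicates 2, 3 or 4. CDCA7, which works with the remodeller HELLS at repeats, rose to 47.0 ± 1.73 RPKM in dome-shaped cells, against 30.3 ± 4.92 RPKM in primed cells (log2 fold change 0.63, SE 0.12, limma adjusted p = 0.00979). ZNF445, a zinc finger protein that binds imprinting control regions, rose by 0.56 on the log2 scale (SE 0.11) and EZH2, the catalytic subunit of Polycomb complex PRC2, by 0.59 (SE 0.12). All 3 were called in each of the 8 fits that left out 1 library. NSD2, a histone H3 lysine methyltransferase, had a log2 fold change of 0.77 (SE 0.19) and was called in 2 of those 8 fits (limma adjusted p up to 0.0814).

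On the lower side were PRDM14, DPPA4 and ZFP57. PRDM14, known in mouse ESCs to repress Dnmt3b, had 18.1, 37.4, 13.9 and 43.4 RPKM in dome-shaped and 80.7, 58.8, 53.2 and 52.9 RPKM in primed replicates 1 to 4. Its groups did not overlap (log2 fold change -1.22, SE 0.33, limma adjusted p = 0.0401). It was called in 2 of the 8 fits without 1 library (adjusted p up to 0.0885). DPPA4, a chromatin factor of pluripotent cells, had 146, 236.5, 133 and 349.5 RPKM in dome-shaped and 344, 440, 444 and 380 RPKM in primed replicates 1 to 4, so that dome-shaped replicate 4 again reached the primed range. Its call stood in 1 of the 8 fits (adjusted p up to 0.102). ZFP57, like ZNF445 a guardian of imprints, had a log2 fold change of -0.53 (SE 0.15, limma adjusted p = 0.0478) and was called in 1 of the 8 fits (adjusted p up to 0.11); it is named to complete the count, after its values were seen. HELLS at 127 ± 17.3 RPKM in dome-shaped and 131 ± 8.69 RPKM in primed cells, and PCNA at 265 ± 33.45 RPKM in dome-shaped and 232 ± 24.1 RPKM in primed cells, were not called. DPPA3, which in mouse keeps UHRF1 from DNA, stood at 0.280 to 2.59 RPKM in dome-shaped and 0.421 to 0.616 RPKM in primed libraries and was not tested.

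Of 14 tested genes of base excision repair and related deamination, 2 were higher and 1 lower. The called share was 21.4%, beside 14.3% over all genes. The higher count was 2 without dome-shaped replicate 4 or primed replicate 4, 0 without primed replicate 2 and 1 without any other library, and the lower count was 1 without dome-shaped replicate 4 or primed replicate 1 and 0 without any other. NEIL3, a DNA glycosylase, had 10.3, 7.21, 6.90 and 7.41 RPKM in dome-shaped and 4.26, 4.43, 5.02 and 4.27 RPKM in primed replicates 1 to 4. The groups were apart, and the gene was called in 7 of 8 fits without 1 library (log2 fold change 0.69, SE 0.15, limma adjusted p = 0.0166). POLB, the polymerase that fills the gap, rose to 27.8 ± 1.93 RPKM in dome-shaped cells, against 20.6 ± 2.48 RPKM in primed cells (limma adjusted p = 0.0305, called in 2 of 8 such fits). NEIL1, another glycosylase, was lower at 1.93 ± 1.19 RPKM in dome-shaped and 5.10 ± 1.695 RPKM in primed cells (limma adjusted p = 0.0431, called in 2 of 8 such fits). MBD4, a glycosylase at methylated sites, had 21.9 ± 2.395 RPKM in dome-shaped and 21.0 ± 0.923 RPKM in primed cells and was not called. Among 11 tested readers of methylation, limma called 0; at an unadjusted p under 0.05, 2 were higher and 1 lower.

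A supply list, around one-carbon units, the methyl donor and the 2-oxoglutarate that TET enzymes use, gave 3 higher and 1 lower of 22 tested. The called share, 18.2%, was near the 14.3% over all genes. SHMT2, the mitochondrial enzyme that feeds one-carbon units from serine, had 229, 120.5, 147 and 214 RPKM in dome-shaped and 93.1, 82.4, 68.5 and 68.6 RPKM in primed replicates 1 to 4. All dome-shaped libraries were above all primed ones (log2 fold change 1.14, SE 0.20, limma adjusted p = 0.00908). IDH1, which makes 2-oxoglutarate in the cytosol, had 157.5, 105, 91.3 and 112.5 RPKM in dome-shaped and 60.9, 70.7, 65.8 and 67.4 RPKM in primed replicates 1 to 4, again without overlap (log2 fold change 0.78, SE 0.15, limma adjusted p = 0.0112). Both were called in each of the 8 fits without 1 library. TYMS, the thymidylate synthase, was higher by 0.43 on the log2 scale (SE 0.12, limma adjusted p = 0.045, called in 2 of those fits). TYMS uses one-carbon units and supplies neither the methyl donor nor 2-oxoglutarate. MTRR, which keeps methionine synthase active, fell by 0.30 on the log2 scale (SE 0.07, limma adjusted p = 0.0282, called in 3 of those fits). The vitamin C transporter gene SLC23A2 had 11.3, 20.6, 14.5 and 21.8 RPKM in dome-shaped and 23.02, 25.5, 19.4 and 22.1 RPKM in primed replicates 1 to 4 and was not called (limma adjusted p = 0.17). SLC23A1, the other transporter gene, was under 1 RPKM in all 8 libraries.

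Other dioxygenases that use 2-oxoglutarate and for which vitamin C is a cofactor gave 4 higher and 0 lower of 18 tested, where at an unadjusted p under 0.05 there were 5 higher and 1 lower. By the adjusted p the called share was 22.2%, beside 14.3% over all genes. Their median log2 fold change was -0.02. The higher count was 4 without dome-shaped replicate 4, 1 without primed replicate 3 and 2 without any other library, and 1 was lower without dome-shaped replicate 1 or 4. P3H1, a collagen prolyl 3-hydroxylase, had 25.4 ± 2.30 RPKM in dome-shaped and 16.1 ± 2.23 RPKM in primed cells (SD, n = 4 each; log2 fold change 0.63, SE 0.12, limma adjusted p = 0.0101), and was called in each of the 8 fits without 1 library. P4HA1, a collagen prolyl 4-hydroxylase, rose by 0.63 on the log2 scale (SE 0.15), ASPH, an aspartate hydroxylase, by 0.62 (SE 0.15), and EGLN1, the oxygen sensor that marks hypoxia-inducible factor, by 0.58 (SE 0.16). These were called in 5, 2 and 2 of the 8 fits. EGLN1 overlapped between the groups, as dome-shaped replicate 4 lay below primed replicate 4.

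**Figure D5:**
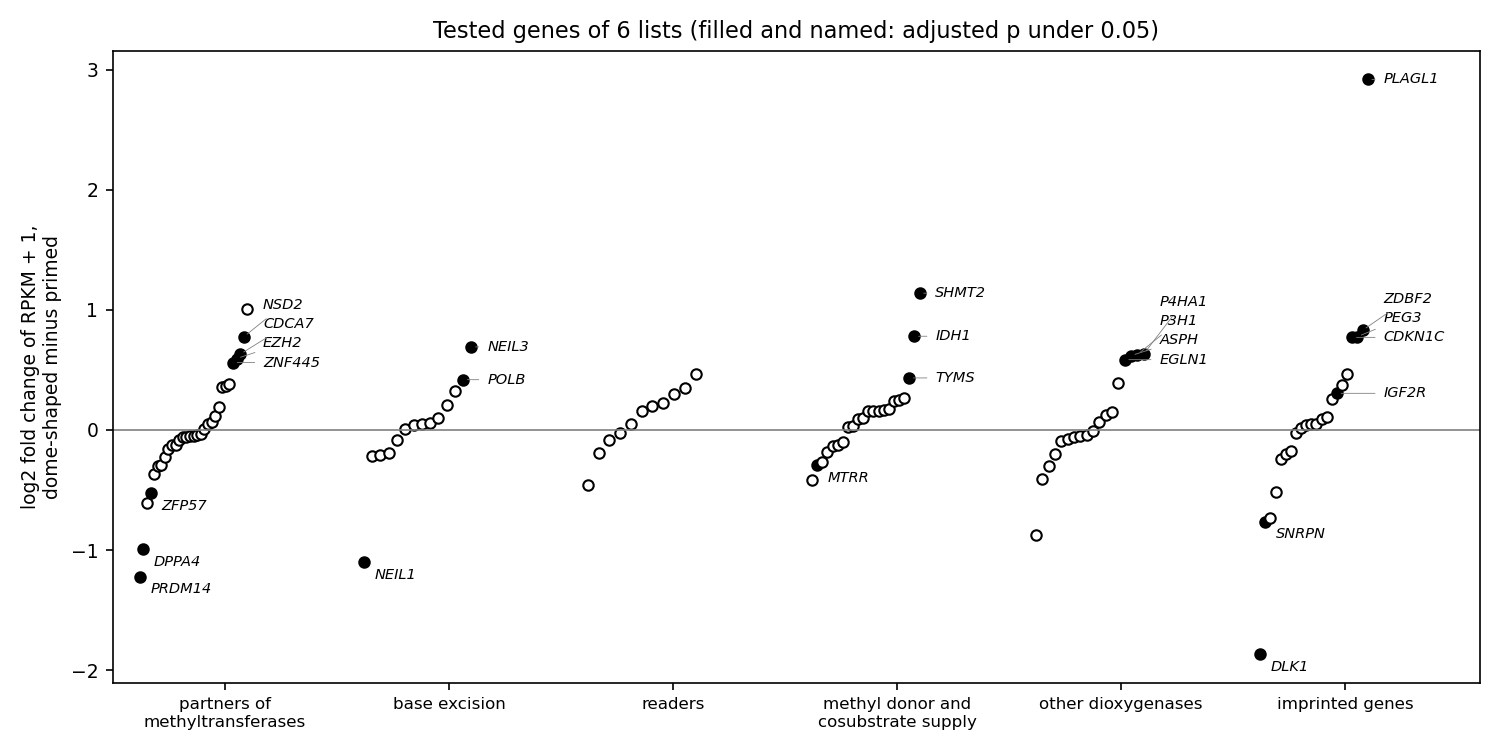
log2 fold change of RPKM + 1, dome-shaped minus primed, of the tested genes of 6 lists, ordered by size within each list; filled points with names had a limma adjusted p under 0.05. Called genes lie on both sides of 0 in the partner, base excision, supply and imprinted lists, on the higher side alone among the other dioxygenases, and none is called among the readers.

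Imprinted genes and germline genes, whose expression can depend on methylation in some tissues, were read as a further list each. Whether it does so in these cells was not tested. Of 22 tested imprinted genes, 5 were higher and 2 lower, with a median log2 fold change of 0.05. The called share was 31.8%, beside 14.3% over all genes. Without 1 library 1 to 5 were higher and 1 to 2 lower. The higher count was 3 without dome-shaped replicate 1 or primed replicate 3, 2 without dome-shaped replicates 2 or 3 or primed replicate 4, and 1 without primed replicate 2. The lower count was 2 without dome-shaped replicate 1 or primed replicate 1 and 1 otherwise. PLAGL1, an imprinted zinc finger gene, had 18.8, 31.7, 31.3 and 3.45 RPKM in dome-shaped and 2.07, 1.52, 0.440 and 1.56 RPKM in primed replicates 1 to 4. Dome-shaped replicate 4 was again nearest the primed libraries, though above them (log2 fold change 2.92, SE 0.59, limma adjusted p = 0.0137). ZDBF2, PEG3, CDKN1C and IGF2R were higher by 0.83, 0.78, 0.77 and 0.30 on the log2 scale, and were called in 6, 4, 2 and 1 of the 8 fits without 1 library. PLAGL1 was called in each of them. SNRPN was lower by a log2 fold change of -0.76 (SE 0.13, limma adjusted p = 0.00806), but its protein is nearly that of SNRPB and reads of the pair may be shared. DLK1 had 0.760 ± 0.806 RPKM in dome-shaped and 6.325 ± 4.88 RPKM in primed cells and overlapped between them. It was called in 2 of the 8 fits and too was named after its values were seen.

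Of 49 germline genes that are silenced by promoter methylation in most somatic tissues, 41 had a row, 35 were under 1 RPKM in all 8 libraries and 6 were tested. Limma called 0 of them, with 2 higher and 0 lower at an unadjusted p under 0.05. DAZL, a germ cell RNA-binding protein gene, had 0, 0, 0 and 0.0343 RPKM in dome-shaped and 0.209, 0.121, 0.273 and 0.295 RPKM in primed replicates 1 to 4. It was lower in each dome-shaped library and did not pass the filter.

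Replication genes, which move with the share of cells copying DNA, gave 3 higher and 0 lower of 31 tested. The called share, 9.68%, was below the 14.3% over all genes. TYMS, 1 of the 3, was already counted in the supply list. Without dome-shaped replicate 4 there were 8 higher, without dome-shaped replicates 2 or 3 there were 0, without primed replicates 2 or 4 there was 1, and without any other library 2; at an unadjusted p under 0.05, 13 were higher and 0 lower. CDC6, a licensing factor, had 59.55 ± 5.69 RPKM in dome-shaped and 44.6 ± 2.87 RPKM in primed cells (limma adjusted p = 0.0185, called in 6 of 8 fits without 1 library). CHAF1B, a subunit of the assembly factor for new chromatin, was higher by 0.52 on the log2 scale (SE 0.15) and was called in 1 of those 8 fits (adjusted p up to 0.105). The list summed to 2734 to 3453 RPKM in dome-shaped and 2562 to 2888 RPKM in primed libraries, and its part in the levels of DNMT1 and UHRF1 was not tested.

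Among lists of cell identity markers, the ESC and trophoblast lists had the largest shares of called genes. The ESC share was 46.7% of the genes tested, beside 14.3% over all genes. The trophoblast share was 50.0%, or 3 of 6 genes. It counts HAND1, which passed the filter through the primed libraries alone, so it cannot be set against all genes. Of 15 tested ESC markers, 7 were lower and 0 higher, and their sum was 1857 to 2960 RPKM in dome-shaped and 3162 to 3310 RPKM in primed libraries. At an unadjusted p under 0.05, 10 were lower and 0 higher. PRDM14 and DPPA4, among the 7, were already counted as partners of the methyltransferases. The lower count was 9 without dome-shaped replicate 4, 4 without dome-shaped replicate 1 or primed replicate 1, 3 without dome-shaped replicate 2, 2 without primed replicate 3, and 1 without dome-shaped replicate 3, primed replicate 2 or primed replicate 4. ZFP42, a zinc finger gene of ESCs, had 52.3 ± 7.93 RPKM in dome-shaped and 88.5 ± 10.7 RPKM in primed cells (limma adjusted p = 0.0078) and was called in each of the 8 fits. Of 9 tested fibroblast markers, 1 was higher and 1 lower, with sums of 84.7 to 176 RPKM in dome-shaped and 87.7 to 283 RPKM in primed libraries. DCN was at or near 0 throughout, but COL1A1 had 14.0 to 44.9 RPKM in dome-shaped and 38.8 to 136 RPKM in primed libraries. ACTA2, the higher gene, had 5.88 to 82.2 RPKM in dome-shaped and 2.955 to 5.32 RPKM in primed libraries. PDGFRB, the lower gene, had 4.07 to 7.11 RPKM in dome-shaped and 7.25 to 10.1 RPKM in primed libraries. Of 6 tested trophoblast markers 3 were lower, with sums of 13.2 to 22.8 RPKM in dome-shaped and 32.8 to 119 RPKM in primed libraries. HAND1, 1 of the 3, had at most 0.7175 RPKM in dome-shaped and 1.006 to 4.6 RPKM in primed libraries. It passed the filter through the primed libraries alone, so its direction is no separate result. The trophoblast count was 1 without dome-shaped replicates 2 or 3, 2 without primed replicates 2, 3 or 4, and 3 to 4 without any other library. The hormone subunit CGA was at 0 RPKM in all dome-shaped and at 0.0972 to 0.673 RPKM in primed libraries. Without 1 library the fibroblast counts were 0 to 2 higher and 0 to 1 lower, with 0 of both without dome-shaped replicates 1 or 2 or primed replicates 2 or 4. Of 10 tested endoderm markers 2 were lower, or 1 without primed replicate 4, and of 4 tested neural markers 1 was higher. That neural marker, FABP7, had 3.446 to 5.34 RPKM in dome-shaped and 0.552 to 0.886 RPKM in primed libraries. It passed the filter through the dome-shaped libraries alone, so its direction too is no separate result. Neither the 4 tested markers of naive pluripotency nor the 5 of germ cells held a called gene; at an unadjusted p under 0.05 there were 0 naive markers and 1 germ cell marker, which was lower. KLF17, a marker of naive human cells, was at 0 RPKM in all dome-shaped libraries and at 0 to 0.0660 RPKM in primed libraries. KLF4, a tested naive marker, had 0.312, 0.321, 0.392 and 11.5 RPKM in dome-shaped replicates 1 to 4. In primed replicates 1 to 4 it had 1.70, 1.77, 1.92 and 2.46 RPKM. The part of other cell types or of cell identity in the lower DNMT3A and DNMT3B was not tested.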

How the data were processed

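Polyadenylated RNA of 8 libraries was sequenced by the authors after random priming, per the labels' protocols, which record no strand-specific step. Upstream tools were HTSeq 0.6.1, TopHat2 2.0.9 and Bowtie2 2.0.6, per the submitters' processing notes; genome build and annotation are not stated in any source at hand. The authors deposited 1 table of RPKM values with, per the file headers, a query length and protein matches with their percent identity. It held 33138 rows, of which 17 without a gene were left out; 0 columns belonged to other samples. RPKM times query length fell on whole reads (within 0.01) for 71.6 to 73.4% of values under 50 reads in each library, against 2.0% by chance. Reads given here are therefore approximate, depth limits only low genes, and no count test was made.

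Symbols came from the table, from protein accessions looked up in RefSeq's table for T2T-MFA8v1.1 (7346 genes), or for 142 genes from protein names paired by hand, with at least 85% identity and 0.95 of the best score. The 15597 genes that reached 1 RPKM in 4 or more libraries were compared as log2(RPKM + 1), dome-shaped minus primed, with limma 3.58.1 in R 4.3.3 (mean trend, no covariates, two-sided), Benjamini-Hochberg adjusted over all of them, at a threshold of 0.05. The log2(RPKM + 1) scale understates changes of low genes. The fit was tested on simulated data. Exact permutation tests, over 70 relabellings, were done in Python 3.11.15 with numpy 2.4.6.

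Named genes were the members, the 3 genes most correlated with each called member, up to 6 genes of smallest adjusted p per described list, 9 fixed genes and markers of cell type; exceptions are marked, and 1 gene under this rule is not reported here. Members and lists were chosen with earlier results of these data known. The alternatives tried were quantile normalization, scaling by the median of ratios, other pseudocounts (0.5 and 0.1), the filter left out or set at a mean of 5 RPKM, no trend, weights per library, the CES number as a block, sums over all rows of a member, and leaving out each library in turn. Averaging libraries of 1 CES number was added after seeing the data.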

Additional observations from a re-analysis of the deposited data

Results flagged for a closer look

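TET1 in dome-shaped replicate 1, at 24.88 RPKM, lay far above the other 3 dome-shaped libraries. Its gap to the nearest was 0.832 of the group's range, just over Dixon's 95% critical value. Of 18 such tests, chance flags about 1 in 20.

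The members' differences in log2(RPKM + 1), dome-shaped minus primed, pointed in opposite directions at different CES numbers for 3 genes, counting only numbers at which the libraries did not overlap. The sign of the mean also changed for TET1 and DNMT3L, where 1 number overlapped. DNMT1 differed by 0.2044 at number 2 and by -0.1773 at number 3. UHRF1 differed by 0.6933 at number 2 and by -0.07164 at number 3. TET2 differed by 0.2393 at number 1, -0.01071 at number 2 and -0.2493 at number 3. Each rests on 1 or 2 libraries a side, and these differences between numbers were not tested.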

How the results depend on the processing

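All 19 alternatives kept DNMT3A and DNMT3B lower, at log2 fold changes of -0.61 to -0.45 and -1.29 to -0.82; DNMT3A was called in 15 of them and DNMT3B in 9. The count of members called lower, 2 of 8, became 1 with no filter (DNMT3B adjusted p = 0.0753), 1 with no trend (0.0568) and 1 with libraries of 1 CES number averaged (0.148); it was 0 without dome-shaped replicate 2, primed replicate 2 or primed replicate 3, 1 without dome-shaped replicate 1, dome-shaped replicate 3 or primed replicate 4, 2 without either other library, and 3 with weights per library, which added TET3. No alternative called a member higher. With the CES number as a replicate block the member count was 0 (DNMT3A adjusted p = 0.0522, DNMT3B 0.0804), and all genes gave 303 higher and 593 lower. Among the lists, the block gave 1 ESC marker, 1 trophoblast marker and 0 partners lower, and 1 replication gene and 1 imprinted gene higher. Libraries of 1 number deviated together weakly at most, with correlations of -0.098 to 0.125 over 5 pairs. Pairs of different numbers gave -0.223 to 0.201 over 11 pairs. Dome-shaped replicate 1 correlated best with a primed library of another number. These deviations were taken from means of 4 libraries in which a number recurs. The check therefore cannot decide whether the numbers pair the libraries, and the main fit did not use them. Over all genes, 995 higher and 1242 lower became 2669 and 2722 with weights per library and 505 and 785 with numbers averaged, and 381 to 1289 higher and 655 to 1441 lower without any 1 library. Without dome-shaped replicate 2 they were 399 and 689, without dome-shaped replicate 3 442 and 686, without primed replicate 2 381 and 655, without primed replicate 3 516 and 834, and without primed replicate 4 487 and 757. The cause was not tested.

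Genes near 0 changed sign. For DNMT1 the log2 fold change was 0.015 under the block, 0.048 with weights, 0.032 summed over its rows, 0.031 with numbers averaged, and -0.087 to 0.044 without any 1 library. TET2 gave -0.0066 under the block, -0.11 with weights, -0.0069 averaged, and -0.058 to 0.12 without any 1 library. MBD4 gave -0.0049 under the block and -0.0083 averaged, and HELLS -0.13 to 0.020 without any 1 library. Among list genes not called, KLF4 gave 0.072 under the block, KLF5 -0.45 to 0.044 and SOX17 -1.29 to 0.13 without any 1 library. NES gave -0.071 under the block, -0.042 averaged and -0.11 to 0.25 without any 1 library, and SOHLH2 0.095 under the block, 0.62 with weights, 0.20 averaged and -0.58 to 0.79 without any 1 library. TET2, below a mean of 5 RPKM, gave no value under that filter. Among the members, depth limited DNMT3L, at 0 to 15 reads a library.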
